A study of Mus musculus with 10 samples.

Results

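Voltage-gated ion channels of the calcium, sodium and HCN families were examined in mouse prefrontal cortex. The genes were chosen by symbol alone: the calcium channel pore subunits (Cacna1), their alpha2delta (Cacna2d) and beta (Cacnb) subunits, the sodium channel pore and beta subunits (Scn), and the HCN channels (Hcn). The rule found 33 genes among the 15914 listed protein-coding genes. All 10 bulk RNA libraries were of prefrontal cortex, and all mice were wild-type C57BL/6J animals that had been through hypobaric hypoxia, the low oxygen of reduced air pressure. A first group of 5 libraries, hypoxia, had this exposure alone. A second group of 5, written hypoxia + PBM, was given photobiomodulation after the exposure, that is, treatment by light, from a laser according to the group name. The comparison therefore concerns what differed with photobiomodulation in exposed mice, in a study of synaptic plasticity deficits. Mice at normal pressure were not analysed here. Age, sex, dissection, and whether each library came from its own animal are not given in the labels, so p-values reflect the scatter among these libraries alone, and that scatter may be technical.

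Sodium channels of the Nav type open on depolarization and carry the rising phase of the action potential. Each has a pore-forming alpha subunit, and single-pass beta subunits that set its gating and surface density and also act as adhesion molecules. Calcium channels of the Cav type turn depolarization into calcium entry, which triggers transmitter release, shapes dendritic excitability and signals to the nucleus. Cav1 and Cav2 pores are brought to the membrane by cytoplasmic beta subunits and extracellular alpha2delta subunits, while Cav3 pores open near rest and can work without them. HCN channels open on hyperpolarization, carry a mixed sodium and potassium current, and in cortical pyramidal cells dampen dendritic input. All of these channels act on synaptic integration in the cortex.

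Between 29283937 and 35957148 reads per library lay behind the values, with a median of 31314934 in hypoxia and 34049669 in hypoxia + PBM. Levels are in FPKM, fragments per kilobase of gene scaled to the reads of the library. The order of different genes on this scale depends on the length used for each gene. Markers of cortical excitatory neurons (12 genes, summed level 689.6 to 749.8 FPKM in hypoxia and 702.8 to 735.7 in hypoxia + PBM) were detected in every library, as the tissue label requires. The 17 striatal markers, genes of the medium spiny neurons that make up most of a neighbouring structure, were also detected, none of them at 0. Their summed level was 420.8 to 755.3 FPKM in hypoxia and 220.9 to 387.2 in hypoxia + PBM, with no overlap, and 16 of the 17 were called lower. In bulk tissue, fewer cells of a type, less RNA per cell and a different share of neighbouring tissue in the sample cannot be told apart. The dissection is not given in the labels, so a difference in it cannot be told from the group. Over the other 10 marker lists, the median log2 fold change lay between -0.187 (choroid plexus) and 0.201 (endothelium).

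Levels were compared as mean FPKM over the 10 libraries. By reads some of these orders were reversed. In hypoxia Cacna1e had 3231 to 4624 reads over 55220 bases, against 2653 to 3500 over 8967 bases for Cacna1a. Scn8a had 6389 to 8197 reads in hypoxia, against 4563 to 5406 for Scn1a. Among pore genes of high-voltage-activated calcium channels, Cacna1a, the P/Q-type pore of presynaptic terminals, was highest at 11.2 FPKM. It was followed by the N-type pore Cacna1b (6.04 FPKM), the L-type pore Cacna1c (3.05), the R-type pore Cacna1e (2.55) and the second L-type pore Cacna1d (1.52). Cacna1a stood above Cacna1b, and Cacna1b above Cacna1e, in 10 of 10 libraries without overlap. Among the low-voltage-activated T-type pores, Cacna1i (8.69 FPKM) was above Cacna1g (4.04) without overlap, while Cacna1g and Cacna1h (2.58) overlapped. Among sodium channel pores, Scn2a, found on unmyelinated axons and the initial segment of excitatory neurons, was highest at 30.6 FPKM. Scn1a (18.1 FPKM), the main pore of fast-spiking interneurons, and Scn8a (16.4 FPKM), the pore of nodes and distal initial segments, overlapped, with Scn1a above Scn8a in 8 of 10 libraries. The embryonic pore Scn3a lay at 1.3 FPKM.

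On this per-length scale the leading auxiliary subunits of sodium and calcium channels were more abundant than any pore of their own class. Among sodium channel beta subunits, Scn2b was at 66.4, Scn4b at 40.9 and Scn3b at 25.3 FPKM, and each overlapped the next when all libraries were pooled. Cacnb3 led the calcium channel beta subunits at 57.5 FPKM, then Cacnb1 (27.1) and Cacnb4 (23.6), which overlapped, and Cacnb2 (6.18). Cacna2d3 led the alpha2delta subunits at 18.9 FPKM, then Cacna2d1 (8.66), Cacna2d2 (4.39) and Cacna2d4 (0.222). By reads Cacna2d1 was above Cacna2d3, with 5388 to 6437 against 2582 to 3226 in hypoxia. Hcn2 (44.2 FPKM) stood above Hcn3 (1.49), and Hcn3 above Hcn4 (0.292) in 10 of 10 libraries. A set of 4 genes was under 0.1 FPKM in at least 7 of the 10 libraries and was not tested. Among them were the skeletal muscle pore Cacna1s (0.0605 FPKM in hypoxia and 0.0705 in hypoxia + PBM) and the sensory neuron pores Scn9a (0.0357 and 0.0456) and Scn10a (0.0885 and 0.0664).

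**Figure D1:**
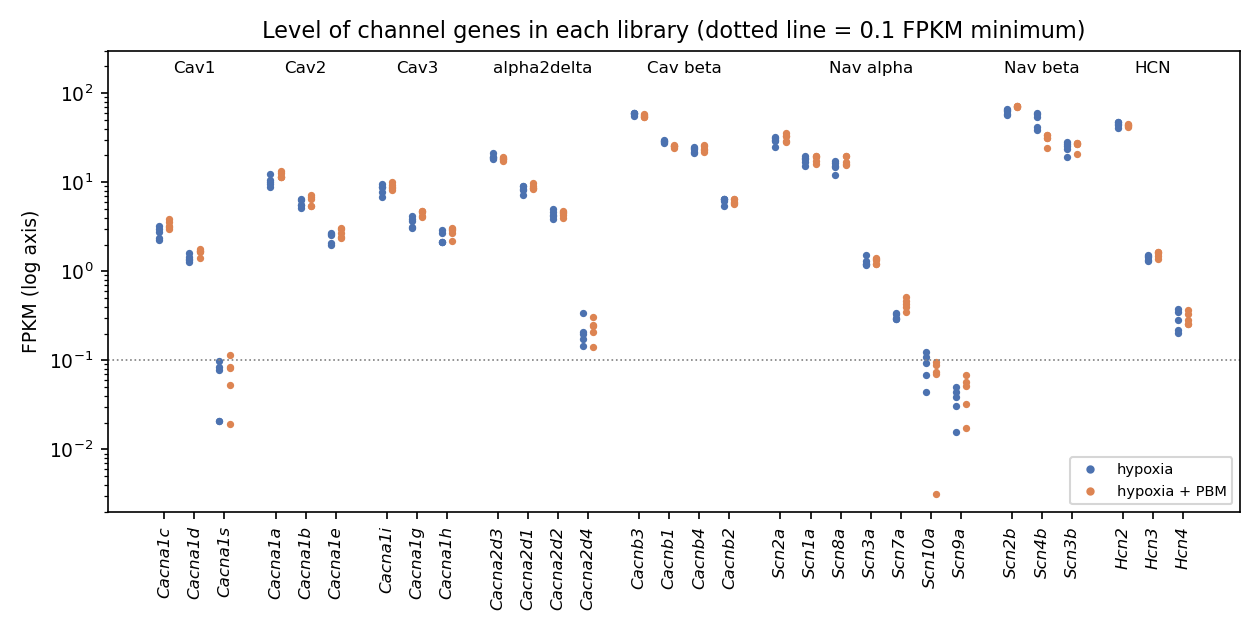
Level of channel genes in FPKM (log axis), grouped by family, with 1 point per library, hypoxia in blue and hypoxia + PBM in orange. The plotted genes run from Scn2b at 66.4 FPKM down to the untested genes around the dotted minimum of 0.1 FPKM, and Scn4b shows the widest visible gap between the groups among the abundant genes.

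Between the groups, 3 of the 29 tested channel genes were called: the sodium channel beta subunit genes Scn4b (lower in hypoxia + PBM) and Scn2b (higher), and the calcium channel beta subunit gene Cacnb1 (lower). No pore gene and no HCN gene was called. A gene was tested at 0.1 FPKM or more in at least 5 libraries and called at an adjusted p under 0.05 in a limma-trend fit over all genes. Of the 14406 tested genes, 411 were called (2.85%), 166 of them higher (1.15%) and 245 lower (1.7%). The members' share was 10.3%, on a count of 3. At an unadjusted p under 0.05 there were 11 channel genes, 8 higher and 3 lower, a share of 37.9% beside 19.6% of all tested genes (9.46% higher and 10.1% lower). The groups did not overlap for 4 channel genes (Scn4b, Scn2b, Cacnb1 and Scn7a), 13.8% beside 5.53% of all tested genes. The log2 fold change was above 0 for 23 of 29 channel genes, 79.3% beside 50% of all tested genes, and its median was 0.0818 beside 0.000114. That median was 0.0467 without hypoxia replicate 2, and 0.0184, with 21 of 29 above 0, when the mean of the striatal markers was a covariate. In size, regardless of sign, the median log2 fold change was 0.0923 for the channel genes and 0.0593 for all tested genes.

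**Figure D2:**
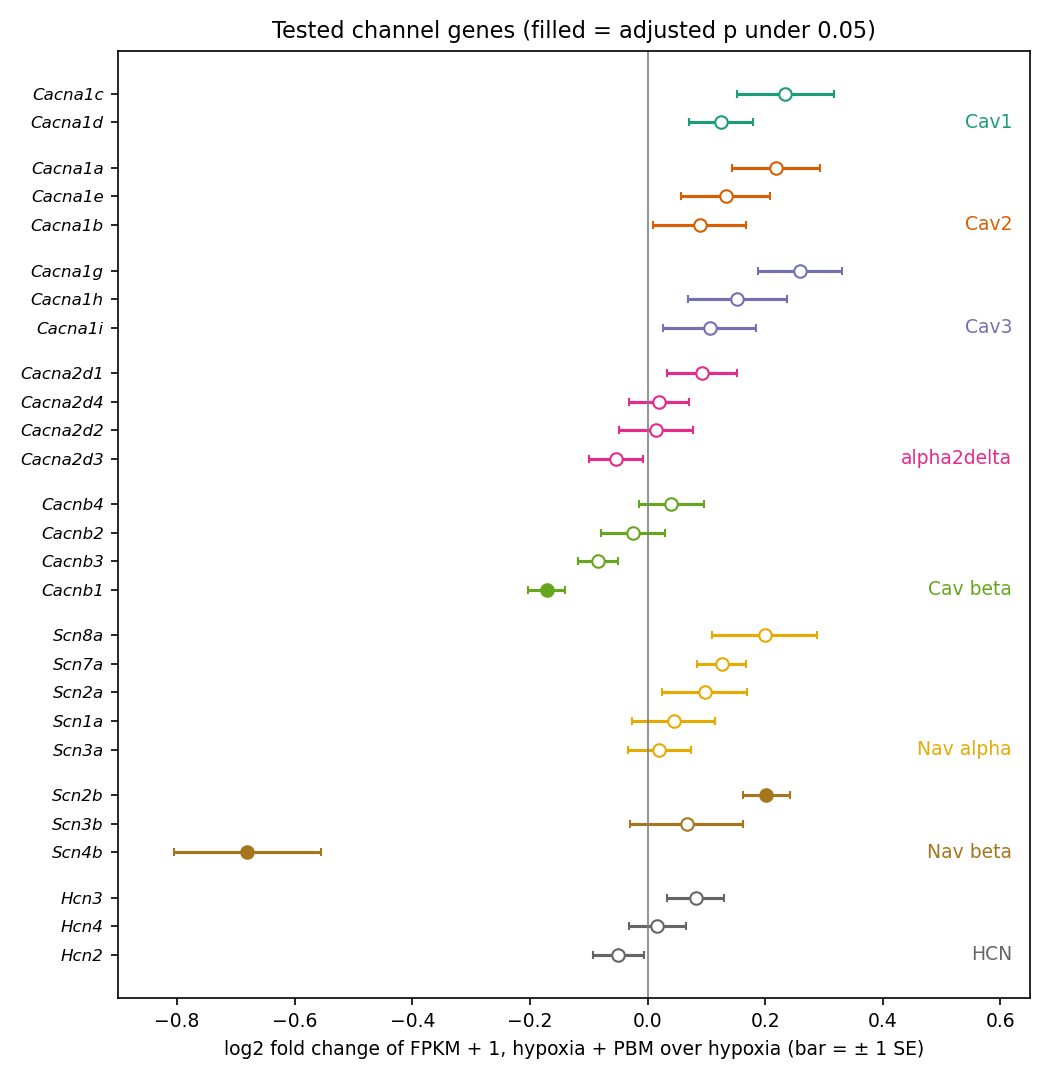
Log2 fold change of FPKM + 1 (hypoxia + PBM over hypoxia, 5 libraries each) of tested channel genes by family, with bars of 1 standard error and filled points for an adjusted p under 0.05. The 8 tested Cav1 to Cav3 pore genes all lie to the right of 0 with open points, and Scn4b at -0.681 lies far to the left of every other gene.

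Scn4b encodes the beta4 subunit, known for its role in resurgent sodium current and for its high expression in striatal medium spiny neurons. Scn2b encodes beta2, which is bound to the pore by a disulfide bond and raises sodium channel density at the surface. The pair are neighbouring protein-coding genes on mouse chromosome 9. Their promoter windows are shown because these adjacent genes differed in opposite directions. The windows run from 250 bases before to 50 after the annotated start, are taken from RefSeq for GRCm38.p6, and are printed 5′ to 3′ on the gene's strand, with motif matches in capitals.
Scn4b, chr9:45138374-45138673, plus strand: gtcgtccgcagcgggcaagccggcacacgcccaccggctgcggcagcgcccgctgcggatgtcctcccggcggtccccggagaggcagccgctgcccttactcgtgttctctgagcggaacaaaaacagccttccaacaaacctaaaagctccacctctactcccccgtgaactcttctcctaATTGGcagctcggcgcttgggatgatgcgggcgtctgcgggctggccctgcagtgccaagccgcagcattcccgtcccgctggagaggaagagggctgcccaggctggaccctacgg
Scn2b, chr9:45117626-45117925, plus strand: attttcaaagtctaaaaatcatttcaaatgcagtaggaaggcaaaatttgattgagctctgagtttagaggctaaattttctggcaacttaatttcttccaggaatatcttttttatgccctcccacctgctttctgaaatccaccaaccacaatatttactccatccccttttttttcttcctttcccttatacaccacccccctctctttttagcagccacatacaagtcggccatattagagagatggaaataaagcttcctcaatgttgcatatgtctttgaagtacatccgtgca
The motifs searched on both strands were the E-box CACGTG, the cAMP response element TGACGTCA, the GC box GGGCGG, the TATA box TATAAA, the CCAAT box CCAAT and the hypoxia-response core ACGTG, which also lies within the E-box. The Scn4b window holds 1 match, a CCAAT box at position -67 from the start, a motif found in 37.4% of the 32851 windows of the same length. The Scn2b window holds none of the 6 motifs' letters. GC content is 66.3% in the Scn4b window and 38.3% in the Scn2b window, on either side of the median of 52.7% over all windows.

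Scn4b stood at 54.4, 41.5, 58.7, 38.7 and 60.5 FPKM in hypoxia replicates 1 to 5. In hypoxia + PBM it stood at 31.2, 31.4, 24.3, 34.1 and 34.1 FPKM in replicates 1 to 5. Every hypoxia + PBM library was below every hypoxia library, and within hypoxia the libraries fell into an upper trio (replicates 1, 3 and 5) and a lower pair (replicates 2 and 4). The mean was 50.8 ± 10.02 FPKM (SD, n = 5) in hypoxia, against 31.0 ± 4.00 (SD, n = 5) in hypoxia + PBM, from 5835 to 9125 and 3996 to 5840 reads. On the log2 scale the change was -0.681 ± 0.125 (SE; adjusted p = 0.0147, limma-trend), and Scn4b was called in 10 of 10 fits that each left out 1 library.

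Scn2b was at 58.8, 56.7, 65.8, 64.8 and 62.7 FPKM in hypoxia replicates 1 to 5. In hypoxia + PBM it was at 71.6, 71.0, 70.6, 71.95 and 70.3 FPKM. The hypoxia + PBM libraries lay close together, all above the highest hypoxia library. The means were 61.8 ± 3.88 and 71.1 ± 0.684 FPKM (SD, n = 5 each), from 8158 to 9643 and 10479 to 12192 reads. The coefficient of variation of Scn2b over the hypoxia + PBM libraries, 0.962%, was the lowest of the 29 tested channel genes in that group, whose median was 8.06%. Counting error at 10479 to 12192 reads is not small beside that value, and the coefficient of Scn2b in hypoxia was 6.27%. The log2 fold change was 0.202 ± 0.0401 (SE; adjusted p = 0.0199, limma-trend), a 1.15-fold rise. The call was lost without hypoxia replicate 1 (adjusted p = 0.0522) and without hypoxia + PBM replicate 1 (adjusted p = 0.0516), and kept in the other 8 fits that left out 1 library, with adjusted p from 0.0145 over these 10 fits.

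**Figure D3:**
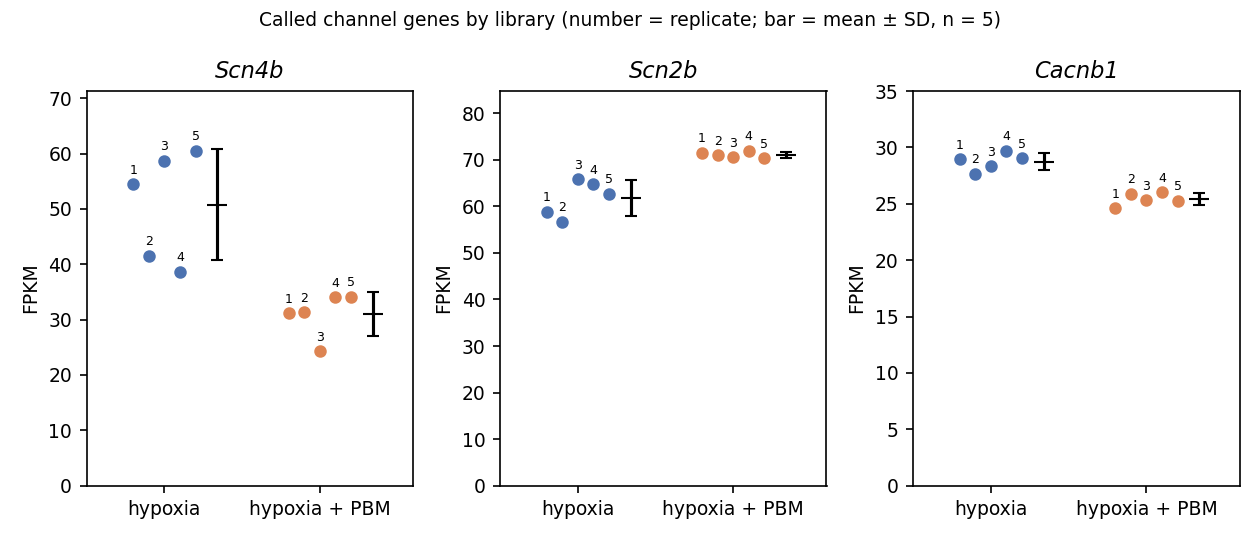
FPKM of Scn4b, Scn2b and Cacnb1 in each library (points numbered by replicate), with the mean and SD of 5 libraries per group beside them. The groups do not overlap for any of the 3 genes, with Scn4b and Cacnb1 lower and Scn2b higher in hypoxia + PBM.

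Scn3b, the beta3 subunit, was at 24.8 FPKM in hypoxia and 25.9 in hypoxia + PBM, with a log2 fold change of 0.0665 (adjusted p = 0.756, limma-trend), and was not called. Single libraries set this value: it was -0.015 without hypoxia replicate 1 and 0.14 without hypoxia + PBM replicate 4.

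The striatal markers moved with Scn4b library by library. Their mean log2(FPKM + 1) was 4.08, 3.85, 4.2, 3.49 and 4.25 in hypoxia replicates 1 to 5 and 3.13, 3.17, 2.65, 3.32 and 3.41 in hypoxia + PBM. Scn4b ranked all 10 libraries in the same order as this mean, while the other 28 tested channel genes matched 0 to 3 of its ranks. Hypoxia + PBM replicates 4 and 5 were nearly tied for Scn4b, at 34.1 and 34.11 FPKM. Only equal ranks were counted, so a gene in the reverse order would also score low. Cacna1a, for example, was highest in hypoxia + PBM replicate 3, where the striatal mean was lowest. With the striatal mean as a covariate, the Scn4b log2 fold change was -0.0222 ± 0.0834 (SE; adjusted p = 0.993, limma-trend). In that same fit Scn2b was at 0.208 ± 0.0765 (SE; adjusted p = 0.741) and Cacnb1 at -0.180 ± 0.0603 (SE; adjusted p = 0.721). Without the covariate Scn2b was at 0.202 ± 0.0401, Cacnb1 at -0.171 ± 0.0314 and Scn4b at -0.681 ± 0.125 (SE each). The estimates of Scn2b and Cacnb1 thus stayed close while their SE grew, and that of Scn4b did not stay. With the covariate Cacna1a moved from 0.218 to -0.0293 and Scn8a from 0.199 to 0.0202, while Cacna1c moved less, from 0.234 to 0.195. Over the 13 alternatives that kept all libraries, the adjusted p ranged from 0.00286 to 0.993 for Scn4b, from 0.011 to 0.741 for Scn2b and from 0.00809 to 0.721 for Cacnb1. The covariate itself separates the groups without overlap, and with it 0 of 14406 genes were called by limma-trend, with 870 at an unadjusted p under 0.05. The striatal mean and the treatment group therefore cannot be told apart by this fit. The share of neighbouring tissue in each sample was not tested.

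**Figure D4:**
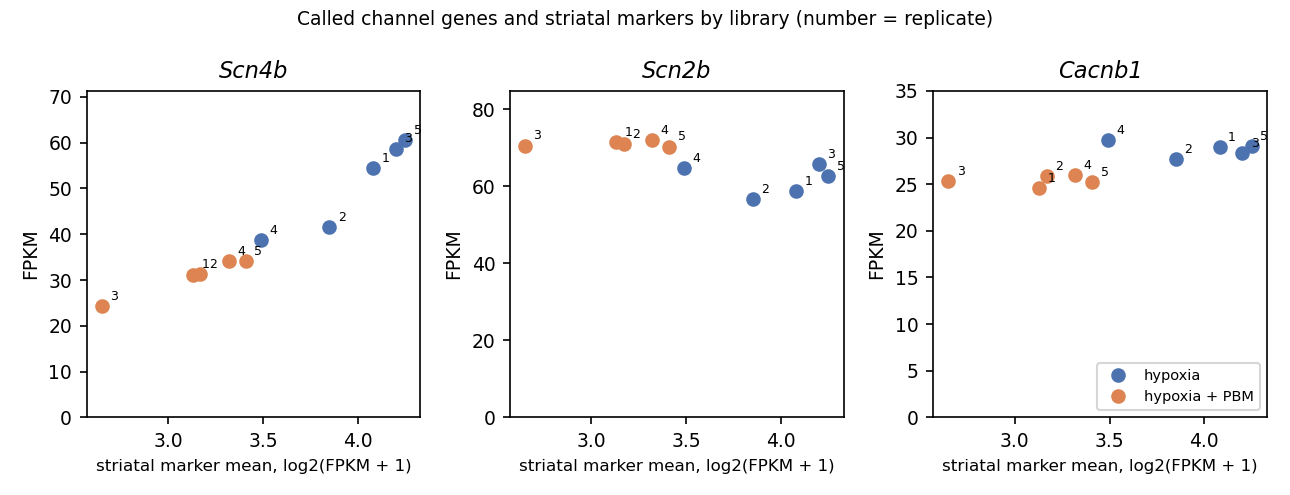
FPKM of Scn4b, Scn2b and Cacnb1 against the mean log2(FPKM + 1) of 17 striatal markers, with 1 point per library numbered by replicate. Scn4b climbs from 24.3 to 60.5 FPKM in the same library order as the striatal mean, which no other tested channel gene does.

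Cacnb1 encodes the beta1 subunit of calcium channels, best known from skeletal muscle and also present in brain, which carries the pore to the membrane and tunes its gating. The promoter window at one of its RefSeq starts is shown for comparison with the sodium channel pair, in the same format.
Cacnb1, chr11:98022578-98022877, minus strand: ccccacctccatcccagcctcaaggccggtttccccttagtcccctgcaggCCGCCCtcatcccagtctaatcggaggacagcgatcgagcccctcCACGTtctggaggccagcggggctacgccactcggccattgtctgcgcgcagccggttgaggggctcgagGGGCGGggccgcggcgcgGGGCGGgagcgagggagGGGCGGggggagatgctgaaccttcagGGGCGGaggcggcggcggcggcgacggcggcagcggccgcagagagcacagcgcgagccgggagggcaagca
This window holds 5 GC boxes and 1 hypoxia-response core at position -154, and its GC content is 73.7%. The window at the other RefSeq start of Cacnb1, not printed, holds none of the 6 motifs' letters and has a GC content of 59.3%. A GC box is found in 35.7% of all windows and a hypoxia-response core in 19.6%, and among the 33 windows that matched 23 of the channel genes, 15 hold a GC box and 2 the hypoxia-response core. No window of a channel gene holds an E-box (7.15% of all windows) or the full cAMP response element (1.79%), while 7 hold a CCAAT box and 2 a TATA box (13.6% of all windows).

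Cacnb1 was at 28.97, 27.7, 28.4, 29.7 and 29.1 FPKM in hypoxia replicates 1 to 5, and at 24.6, 25.9, 25.3, 26.0 and 25.3 FPKM in hypoxia + PBM. The lowest hypoxia library was above the highest hypoxia + PBM library. The mean fell from 28.8 ± 0.775 to 25.4 ± 0.567 FPKM (SD, n = 5 each), and the coefficient of variation over the hypoxia libraries, 2.7%, was the lowest of the tested channel genes. On the log2 scale the change was -0.171 ± 0.0314 (SE; adjusted p = 0.0147, limma-trend), and the call held in 10 of 10 fits that left out 1 library. A noncoding gene on the opposite strand overlaps an exon of Cacnb1, and the sources used here do not give the strand of the reads, so its reads cannot be told from those of Cacnb1. Genes on the opposite strand likewise overlap exons of Cacna1a, Cacna1d, Cacna1h, Cacna1s, Cacna2d2, Cacnb2, Cacnb4, Hcn3 and Scn9a, and none overlaps Scn2b or Scn4b.

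Cacnb3, the calcium channel beta subunit gene with the highest FPKM, stood at 60.4, 56.1, 58.1, 60.8 and 60.4 FPKM in hypoxia and 54.1, 58.5, 54.9, 57.0 and 54.3 in hypoxia + PBM. The groups overlapped through hypoxia replicates 2 and 3 and hypoxia + PBM replicates 2 and 4. Its log2 fold change was -0.0838 ± 0.0344 (SE; adjusted p = 0.198, limma-trend). Cacnb2 (6.24 and 6.12 FPKM) and Cacnb4 (23.3 and 23.9 FPKM) had log2 fold changes of -0.0243 and 0.0403. With 3 of its 4 genes below 0, the beta family had a median log2 fold change of -0.0541. Its summed level was 117 ± 4.00 FPKM (SD, n = 5) in hypoxia, against 111 ± 2.61 (SD, n = 5) in hypoxia + PBM.

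Among 22 partners of calcium channels, 0 were called higher and 2 lower, beside 1.15% and 1.7% of all tested genes, with a median log2 fold change of 0.0427. This list was set with earlier results of these data known, so its counts only describe it. Both called genes encode RGK GTPases, small proteins that bind calcium channel beta subunits and inhibit high-voltage-activated channels. The other RGK genes of the list were not called: Rem1 had a log2 fold change of 0.06 (adjusted p = 0.538, limma-trend) and Rrad of -0.0336 (adjusted p = 0.837). Rem2 was at 5.60, 5.98, 6.51, 3.83 and 6.75 FPKM in hypoxia and 2.78, 3.95, 3.11, 2.10 and 4.30 in hypoxia + PBM. Hypoxia replicate 4 lay below 2 of the hypoxia + PBM libraries. The log2 fold change was -0.672 ± 0.149 (SE; adjusted p = 0.0309, limma-trend), and the call was kept in 3 of 10 fits that left out 1 library, those without hypoxia replicate 4, hypoxia + PBM replicate 2 or hypoxia + PBM replicate 5, with adjusted p from 0.00749 to 0.08. Gem was at 0.908, 0.514, 0.693, 0.700 and 0.751 FPKM in hypoxia and 0.3, 0.213, 0.395, 0.291 and 0.501 in hypoxia + PBM, without overlap. Its log2 fold change was -0.354 ± 0.0681 (SE; adjusted p = 0.0174, limma-trend), and it was called in 10 of 10 such fits. That scale understates the difference at the low level of Gem. Under limma-voom with TMM scaling the log2 fold change was -1.07 for Gem and -0.836 for Rem2. With the striatal mean as a covariate, Gem was at -0.295 (adjusted p = 0.817, within 0.007 to 0.817 over its alternatives) and Rem2 at -0.269 (adjusted p = 0.949, within 0.00789 to 0.949).

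Pore genes of calcium channels were higher on average in hypoxia + PBM for all 8 tested members, with log2 fold changes from 0.0884 to 0.26, and none was called. Of all tested genes 50% were above 0, and 64.6% of those in the longest of 5 equal length groups. Each of the 8 pore genes was also below its own mean in hypoxia replicate 2. With the striatal covariate 3 of the 8 turned below 0: Cacna1a (-0.0293), Cacna1b (-0.0645) and Cacna1i (-0.0468). The largest value belonged to Cacna1g, the Cav3.1 T-type pore that supports burst firing. Cacna1g stood at 3.72, 3.09, 3.14, 4.15 and 3.85 FPKM in hypoxia and 4.82, 4.03, 4.76, 4.64 and 4.17 in hypoxia + PBM. Only hypoxia replicate 4 reached into the hypoxia + PBM range. Its log2 fold change was 0.26 ± 0.0715 (SE; adjusted p = 0.0709, limma-trend). It was called in the 3 limma-voom fits on reads, with 0.333 ± 0.0808 (SE; adjusted p = 0.0312) under TMM scaling, and without hypoxia replicate 4 (adjusted p = 0.0338). The adjusted p ran from 0.0312 to 0.965 over the alternatives with all libraries. The other T-type pores were Cacna1h (2.39 and 2.77 FPKM, log2 fold change 0.153, adjusted p = 0.344) and Cacna1i. Cacna1i was at 8.79, 6.76, 7.69, 9.60 and 8.92 FPKM in hypoxia and 8.84, 8.30, 10.1, 9.36 and 8.52 in hypoxia + PBM, overlapping, with a log2 fold change of 0.106 ± 0.0791 (SE; adjusted p = 0.496).

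The L-type pore Cacna1c, which couples synaptic activity to transcription, was at 2.34, 2.23, 3.02, 2.77 and 3.26 FPKM in hypoxia and 3.57, 3.00, 3.90, 3.20 and 3.18 in hypoxia + PBM. Hypoxia replicates 3 and 5 lay within the hypoxia + PBM range. On the log2 scale the change was 0.234 ± 0.0823 (SE; adjusted p = 0.14, limma-trend). The second L-type pore Cacna1d opens at more negative voltages. It was at 1.34, 1.28, 1.38, 1.46 and 1.61 FPKM in hypoxia and 1.68, 1.40, 1.76, 1.68 and 1.65 in hypoxia + PBM, where replicate 2 fell among the hypoxia libraries. Its log2 fold change was 0.125 ± 0.0537 (SE; adjusted p = 0.217), and the listed gene Chdh overlaps one of its exons on the opposite strand.

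Cacna1a stood at 10.1, 8.86, 9.67, 12.4 and 10.5 FPKM in hypoxia and 12.8, 11.4, 13.5, 11.4 and 11.6 in hypoxia + PBM. Hypoxia replicate 4 lay among the hypoxia + PBM libraries and the other hypoxia libraries lay below them all. The log2 fold change was 0.218 ± 0.0751 (SE; adjusted p = 0.135, limma-trend), and it was called only without hypoxia replicate 4 (adjusted p = 0.0278; up to 0.258 without another library). Cacna1b was at 5.82 and 6.27 FPKM in the groups and Cacna1e at 2.39 and 2.71, with log2 fold changes of 0.0884 (adjusted p = 0.578) and 0.133 (adjusted p = 0.364).

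The alpha2delta subunits, which carry calcium channels to the terminal and in part bind gabapentin, gave no call, and their summed FPKM was 32.2 in hypoxia and 32.1 in hypoxia + PBM. Cacna2d3 was at 18.5, 19.1, 19.1, 18.2 and 21.6 FPKM in hypoxia and 17.5, 18.5, 19.3, 19.0 and 18.4 in hypoxia + PBM. Hypoxia replicate 5 stood above every other library. Its log2 fold change was -0.0533 ± 0.0458 (SE; adjusted p = 0.561, limma-trend). Cacna2d1 (8.36 and 8.96 FPKM), Cacna2d2 (4.37 and 4.42) and Cacna2d4 (0.214 and 0.230) had log2 fold changes of 0.0923, 0.014 and 0.0202, with adjusted p from 0.428 to 0.93.

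Sodium channel pores were tested for 5 genes, all above 0 (0.0202 to 0.199), beside 50% of all tested genes, and none was called. Scn1a turned below 0 with the striatal covariate (-0.0929) and without hypoxia replicate 2 (-0.00746), and Scn3a with the length trend removed (-0.0195). Scn8a stood at 14.7, 12.2, 15.2, 17.5 and 16.6 FPKM in hypoxia and 19.5, 15.7, 19.8, 17.03 and 15.9 in hypoxia + PBM. The groups overlapped, with hypoxia replicate 2 the lowest of the 10. Its log2 fold change was 0.199 ± 0.0889 (SE; adjusted p = 0.236, limma-trend). Scn2a was at 29.2, 25.1, 29.8, 32.4 and 31.2 FPKM in hypoxia and 35.5, 28.3, 33.1, 32.7 and 28.8 in hypoxia + PBM, also overlapping, with a log2 fold change of 0.097 ± 0.0723 (SE; adjusted p = 0.497). Scn1a (17.8 and 18.4 FPKM) and Scn3a (1.28 and 1.31) had log2 fold changes of 0.0449 and 0.0202.

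Scn7a encodes the sodium-sensing Nax channel, which is not gated by voltage and is known from glia and from neurons of organs that monitor body fluid. It was at 0.291, 0.299, 0.330, 0.288 and 0.344 FPKM in hypoxia and 0.466, 0.351, 0.395, 0.516 and 0.428 in hypoxia + PBM. The groups did not overlap, on 63 to 80 and 81 to 126 reads. On the log2 scale the change was 0.126 ± 0.0414 (SE; adjusted p = 0.119, limma-trend), a scale that understates the difference at this level, where the ratio of the means was 1.389. The endothelial markers, 9 genes, had a median log2 fold change of 0.201, with 3 called higher and 0 lower and summed levels of 81.95 to 98.88 and 88.02 to 107.4 FPKM. The astrocyte markers, 10 genes, had a median of -0.0225, with 2 called higher and 0 lower. Endothelium was not alone: the median was 0.193 for meningeal fibroblast markers and 0.155 for pericyte and smooth muscle markers. It was -0.073 for microglia and -0.0736 for oligodendrocyte markers. The part of any of these cell types in the Scn7a values was not tested.

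Hcn2, an HCN channel that is strongly tuned by cyclic AMP, was at 47.9, 41.1, 43.7, 47.2 and 45.2 FPKM in hypoxia and 43.5, 41.3, 45.2, 44.6 and 42.7 in hypoxia + PBM. The groups overlapped, with the lowest value in hypoxia replicate 2. A log2 fold change of -0.0499 ± 0.0432 (SE; adjusted p = 0.564, limma-trend) was estimated for Hcn2. Hcn3 (1.42 and 1.56 FPKM) and Hcn4, the pacemaker channel of the heart (0.286 and 0.299 FPKM), had log2 fold changes of 0.0818 and 0.0166.

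Partners of the other channels gave no call. The 10 sodium channel partners had 0 called and a median log2 fold change of 0.0664. Among them are proteins that anchor the channels at the axon initial segment or tune their inactivation. The smallest p belonged to the node and initial segment adhesion protein Nfasc (11.3 ± 1.17 and 12.9 ± 1.10 FPKM, SD, n = 5 each; log2 fold change 0.182 ± 0.0709, adjusted p = 0.178, limma-trend). Of the 3 HCN partners, Pex5l, the TRIP8b protein that controls HCN trafficking, was at 20.8 and 22.6 FPKM with a log2 fold change of 0.109 ± 0.0453 (SE; adjusted p = 0.204). Of 5 tested genes of the sodium leak channel complex, Nalf1 was at 2.07 and 2.36 FPKM with 0.132 ± 0.0499 (SE; adjusted p = 0.168). The median was 0.00817 for the HCN partners and 0.0479 for the sodium leak complex.

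Many of the channel genes moved up and down together between libraries of the same group. Hypoxia replicate 2 was the lowest of the 10 libraries for 14 of the 29 tested genes, and hypoxia + PBM replicates 1 and 3 were each the highest for 7. The channel genes are long: 8240 bases at the median beside 3780 for all tested genes, and 18 of 29 fell in the longest of 5 equal length groups. Across all 14406 genes the log2 fold change rose with length (Spearman's rho 0.19 across genes, which are not independent replicates). It was above 0 for 64.6% of the longest group and 38.7% of the shortest. For the 18 channel genes in the longest group it was above 0 in 94.4%, with a median of 0.116 beside 0.0265 for that whole group. In hypoxia replicate 2 the median deviation from the gene mean was -0.144 for the channel genes, -0.05 for other genes of the longest group and 0.0765 for the shortest. After a length trend was taken from each library, 22 of 29 channel genes were above 0 with a median of 0.0639, and Scn4b, Scn2b and Cacnb1 were again the called ones.

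**Figure D5:**
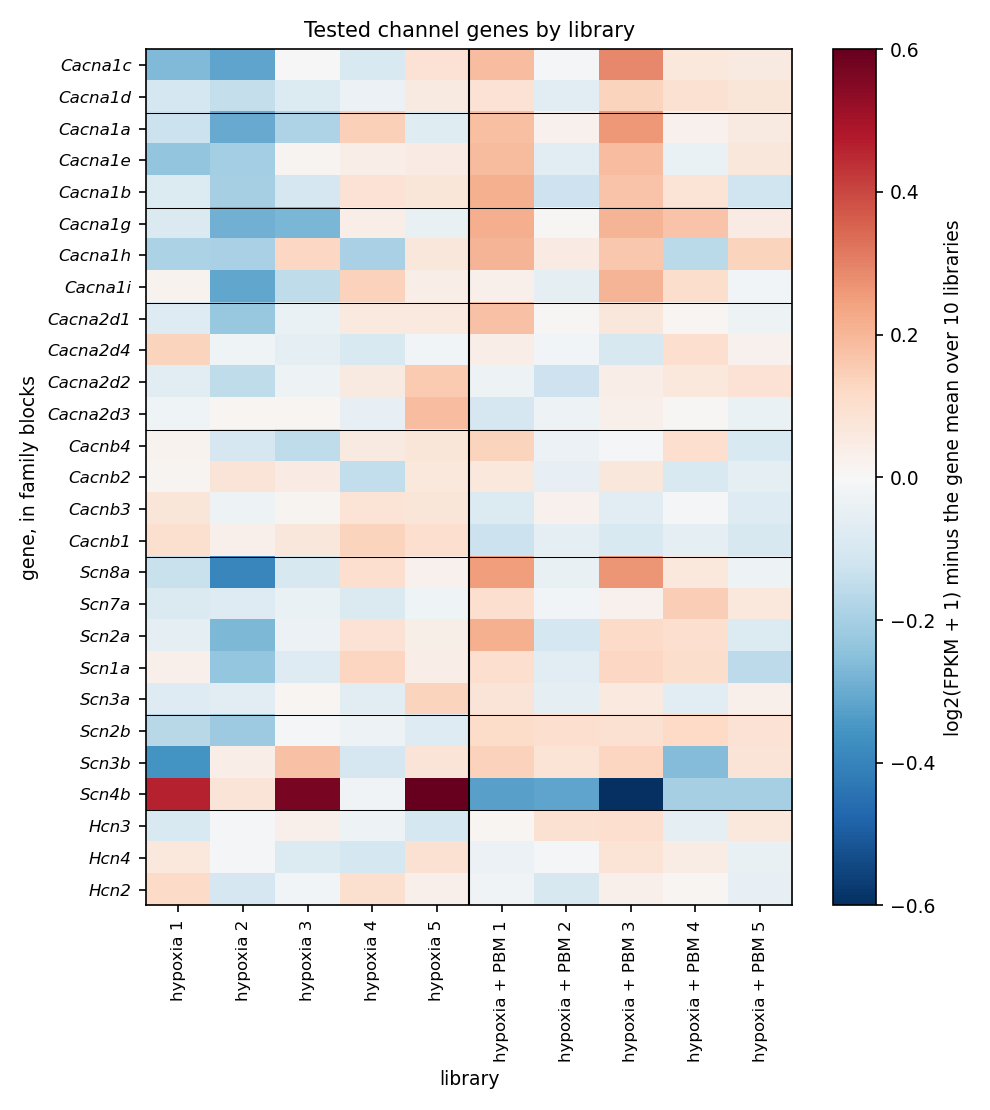
Log2(FPKM + 1) of each tested channel gene minus its mean over 10 libraries, with genes in family blocks and 1 column per library, red above and blue below the mean. Hypoxia replicate 2 is blue for most pore genes and hypoxia + PBM replicates 1 and 3 are red, while Scn4b is red in hypoxia replicates 1, 3 and 5 and blue in all hypoxia + PBM libraries, most in replicate 3.

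In the authors' deposited table, 7 of the 33 channel genes had a q-value under 0.05, beside 6.4% of all listed genes. In the authors' deposited table these included, at higher levels, Scn2b (q = 0.000726), Cacna1g (0.00601), Cacna1c (0.0353) and Scn7a (0.039), and, at lower levels, Cacnb1 (0.000173) and Scn4b (0.00029). The q-value of Cacna1a in the authors' deposited table was 0.0539. The genes called by limma-trend were all among these 7, while Cacna1g, Scn7a and Cacna1c had an adjusted p between 0.0709 and 0.14 in the limma-trend fit.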

How the data were processed

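RNA of 10 prefrontal cortex libraries, 5 per group, was analysed from one deposited table. Per the labels' protocols, libraries were made from TRIzol RNA with a VAHTS Universal V10 kit. The submitters' processing notes name fastp 1.0, HISAT2, HTSeq and the build GRCm39, and the sources used here give neither settings nor strand. For every gene the authors deposited 1 FPKM value per library. They further deposited group means as a signal scaled by DESeq2 size factors, a linear fold change, its log2 value, and the p-value and q-value of their own comparison, per the file headers.

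Because the values were FPKM, limma-trend (limma 3.58.1, R 4.3.3) was fitted, two-sided, to log2(FPKM + 1) on group alone. The log2 fold changes understate changes of genes at low FPKM. Genes at 0.1 FPKM or more in at least 5 libraries were tested (14406 of 15914), with Benjamini-Hochberg adjustment over all of them and calls at 0.05. The script was tested on simulated data. Whole reads were recovered by solving FPKM against the group means (100% of values within 0.01 of a whole number) and gave depths, lengths and limma-voom alternatives. Depths are sums over the listed genes. The chi-square per gene between replicates was 5.97 to 13.8, so no libraries were merged and each was counted once. This value does not show whether the libraries came from separate animals.

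The channel genes were taken by a rule on symbols, not on their values. That rule and the lists were set with earlier results of these data known. Library values are given for channel genes that were called, had an unadjusted p under 0.05 or led their family, and partners are named when called or smallest in p. Some genes under this rule are not reported here. Alternatives changed the pseudocount, minimum, scaling, test, prior, replicate block, length trend, striatal covariate and libraries. Neighbouring and overlapping genes were looked up in RefSeq GRCm38.p6 and GENCODE M21, with no coordinates carried to GRCm39.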

Additional observations from a re-analysis of the deposited data

Results flagged for a closer look

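In 3 of 70 groups of 5 libraries (35 genes in 2 groups), 1 library stood apart by Dixon's ratio, the gap to the nearest library divided by the whole range, taken above 0.71; chance gives about 5%. Scn10a was listed at 0.0032 FPKM in hypoxia + PBM replicate 5, beside 0.0699 to 0.0967 in the other 4 libraries (ratio 0.714), a value that rests on 1 read. Scn3b was at 20.8 FPKM in hypoxia + PBM replicate 4, beside 26.6 to 27.8 (ratio 0.825). Cacna2d3 was at 21.6 FPKM in hypoxia replicate 5, beside 18.2 to 19.1 (ratio 0.746). Scn10a was not tested, and Scn3b and Cacna2d3 were not called between the groups.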

How the results depend on the processing

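Scn4b, Scn2b and Cacnb1 kept their call and direction with other pseudocounts, minima, scalings, a robust prior, limma-voom and the length trend removed. Of all tested genes, 411 were called, 256 with a replicate block, 637 with the length trend removed, 0 with the striatal covariate (870 at an unadjusted p under 0.05, limma-trend), and 189 to 538 when 1 library was left out. Channel genes called higher numbered 1, with 2 in each of the 3 limma-voom fits (Cacna1g added), 0 with the striatal covariate and 0 to 3 when 1 library was left out. Those called lower numbered 2, with 1 under the replicate block, 0 with the striatal covariate and 2 in each fit that left out 1 library. Partner genes called numbered 2, with 1 at a minimum of 1 FPKM (Gem fails it), 4 with quality weights, 0 with the striatal covariate and 1 to 4 when 1 library was left out. With the striatal covariate Cacna1a (-0.0293), Cacna1b (-0.0645), Cacna1i (-0.0468), Cacna2d3 (0.00208), Cacnb2 (0.00218) and Scn1a (-0.0929) changed sign; the covariate separates the groups, and the cause was not tested. Leaving out 1 library turned the sign of Scn1a, Scn3b, Cacna2d2, Cacna2d4 or Hcn4 in some fits, as did quality weights for Cacna2d2 and the length trend for Scn3a, none of them called. Replicate numbers did not pair the libraries: same-number correlations of deviations ran from -0.0721 to 0.205, and 1 of 5 hypoxia libraries matched its own number best. In the block fit the adjusted p was 0.0502 for Cacnb1, 0.0384 for Scn4b and 0.0477 for Scn2b. Counting error is small beside the level for genes of several FPKM and limits Scn7a, Hcn4, Cacna2d4 and the 4 untested genes. It is not small beside the scatter between libraries for Scn2b in hypoxia + PBM (coefficient of variation 0.962%) or for Cacnb1 (2.7% and 2.23%).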
